A study of Mus musculus with 42 samples.

Results

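The first day of the wound response was read from 9 whole-genome expression arrays of mouse skin, out of 42 in the series. 4 arrays hold wounds taken 24 h after injury and 1 topical dose of the control protein, and 5 hold untreated skin at baseline. Members were taken by the treatment and time labels alone (Anti-ragweed at 24 h, and Untreated at Baseline), and every probe set of the table was kept. The wounds were 6 mm across and were made in female db/db mice, which lack a working leptin receptor, become obese and diabetic and close wounds slowly. The methods put these mice at 10 to 12 weeks of age, and describe shaving and hair remover lotion before wounding. The strain tag of every array is C57BL/6, whereas the methods give the db/db mice a BKS background. For the control protein the labels name anti-ragweed, whereas the methods speak of a control Fc. Neither the genotype nor the sex of the untreated mice is labelled, nor whether their skin was shaved, and their sample names come from another run of numbers than those of the wounds, so wounding, genotype, hair removal and any handling batch cannot be told apart. Array numbers below follow the order of deposit. Since the labels do not tie arrays to animals, p-values measure the spread between arrays. All levels are log2 RMA intensities, in which 1 unit is a doubling.

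Skin closes a wound in overlapping stages. Platelets and damaged cells release the first signals, resident cells then make chemokines that draw neutrophils and, somewhat later, monocytes out of the blood, and keratinocytes at the wound edge change their keratins, loosen from the basement membrane and crawl over a provisional matrix of fibrin and fibronectin. New collagen is laid down later by fibroblasts. The db/db mouse is known for slow closure and for leukocytes that stay in the wound.

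A gene was called when its limma adjusted p was under 0.05 and its change was at least 1.5-fold. Of 20672 probe sets, 1624 (7.86%) were higher and 2130 (10.3%) were lower in 24 h wounds than in untreated skin. Both groups separated on the first principal component of the 9 arrays (56.6% of the variance, 43.5 to 59.2 for the wounds and -58.0 to -24.9 for untreated skin). The second component (26.2%) set apart untreated replicate 5, at -88.4. That array correlated at 0.941 to 0.947 with the other untreated arrays, which correlated with each other at up to 0.993. Without it, 1849 probe sets were higher and 2524 lower; 1523 and 1968 were called the same way in both fits and 0 in opposite directions. The 5' probe sets of Gapdh and Actb, which fall when RNA is degraded, were lowest on the same array, at 11.14 and 12.30 against 12.50 to 12.92 and 13.09 to 13.34 on the other untreated arrays. Between the groups they differed by 0.18 and 0.33 (exact permutation test, 2-sided, p = 0.794 and 0.238, where 4 arrays against 5 cannot go below 0.0159). No 3' levels were set beside them, so RNA quality and the expression of these genes cannot be told apart. Xist, which female cells express, lay between 8.39 and 9.93 on all 9 arrays, and was lower in 24 h wounds (-0.75, limma adjusted p = 0.00035). The Y-linked genes Uty, Kdm5d and Eif2s3y lay between 2.35 and 3.52 on all 9 arrays, which marks the level of genes that female skin does not express. Where an untreated mean lies at or under 3.52, the fold is given as a bound against that level.

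The plot of gene lists gives the outline. Lists of leukocyte, cytokine, interferon, NF-kB and keratinocyte activation genes held a larger share of higher calls than the 7.86% among all probe sets. Lists of fat, skeletal muscle, resting hair follicle, pericyte and smooth muscle, and sterol synthesis genes held a larger share of lower calls than the 10.3%. These shares are the background for every count against untreated skin below, also where they are not repeated.

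**Figure D1:**
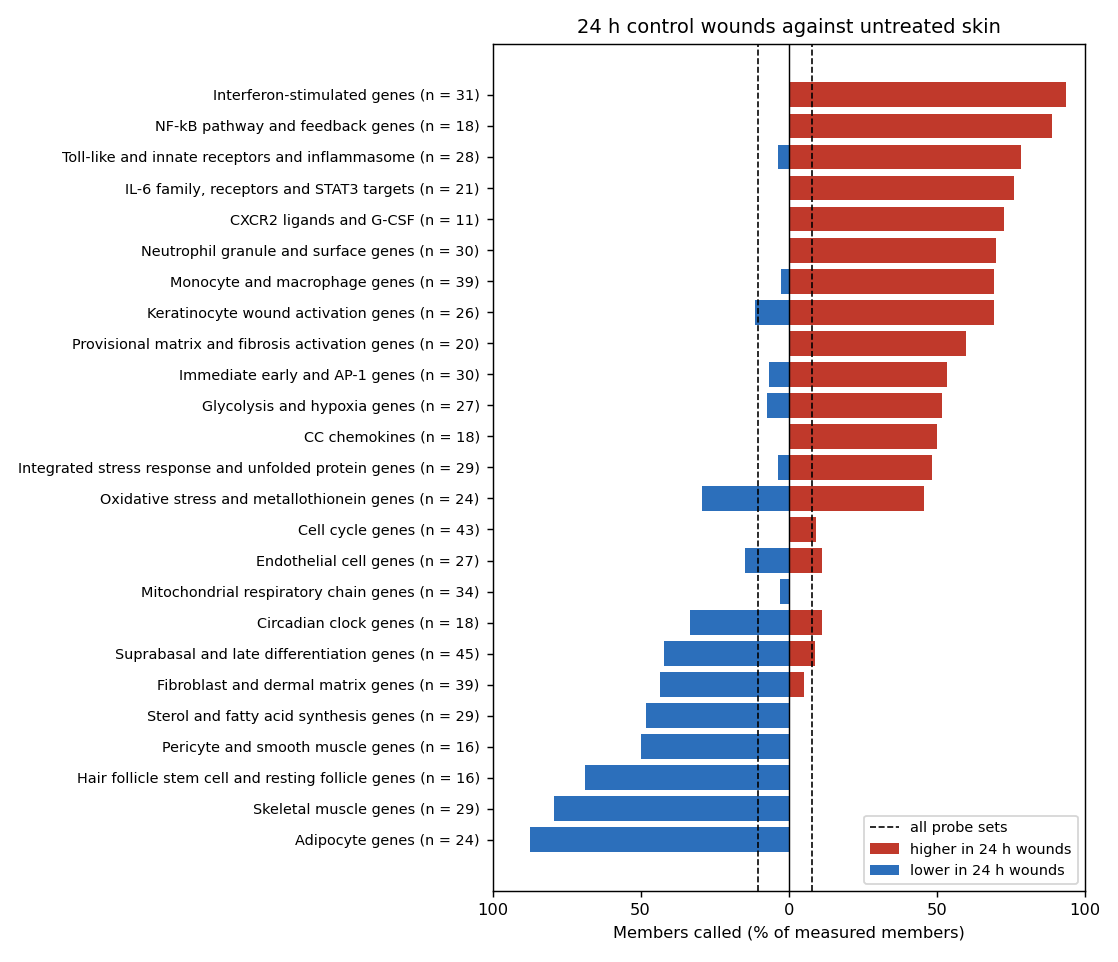
Share of the measured members of 25 gene lists called higher (right, red) or lower (left, blue) in 24 h control wounds than in untreated skin, in % of members, with the shares among all probe sets as dashed lines at 7.86% and 10.3%. The interferon list reached 93.5% higher and the adipocyte list 87.5% lower.

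Cxcl3, Cxcl2 and Cxcl5 were among the 15 largest rises. These chemokine genes encode ligands of CXCR2, the receptor by which neutrophils find injured tissue. The level of Cxcl2 was 12.84, 13.10, 12.64 and 12.97 on the 24 h wound arrays, against 3.67, 4.37, 5.06, 4.56 and 2.97 on the untreated arrays. No wound array came near an untreated one, and the change was 8.76 ± 0.68 (SE), or 434-fold (limma adjusted p = 8.6e-13). Cxcl3 lay at 11.51, 12.08, 10.88 and 11.56 on the 24 h wound arrays, against 2.42, 2.75, 2.69, 2.54 and 2.58 on the untreated arrays. Its untreated level is that of unexpressed genes, so its rise was at least 254-fold (fitted change 8.91, adjusted p = 8.1e-12). Cxcl5 rose at least 249-fold. Ppbp, the chemokine CXCL7 of platelets and myeloid cells, rose by 6.03, and Cxcl1 by 4.50.

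Of 11 measured genes listed with the CXCR2 and G-CSF axis, 8 rose and 0 fell (median change 3.78, against 0.03 over all probe sets). The list also holds Csf2 and the platelet chemokine gene Pf4, whose rise of 2.09 is among the 8. Cxcr2 itself rose by 3.10 and Csf3r, the G-CSF receptor that neutrophils carry, by 3.78. Csf3, the gene of G-CSF, lay at 5.62, 5.67, 5.93 and 5.64 on the 24 h wound arrays, against 4.13, 4.50, 4.51, 4.57 and 4.25 on the untreated arrays. The 4 wounds were close together and all above untreated skin, but its change of 1.32 ± 0.57 (SE) did not pass in the fit that takes the spread from all 42 arrays (adjusted p = 0.062). The fit on the 9 arrays alone called it. Csf2, the gene of GM-CSF, stayed close to background, at 3.72 ± 0.17 in 24 h wounds and 3.54 ± 0.14 in untreated skin (SD, n = 4 and 5).

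The promoters of Cxcl2, Cxcl3 and Cxcl1, which lie together on chromosome 5, are shown because the 3 genes rose together and hold the same 11 bases, in capitals. Each run of capitals is made of 2 matches of the kappaB consensus, the letters that NF-kB binds, shifted by 1 base. They begin at -97 and -96 from the start of the gene in Cxcl2, at -73 and -72 in Cxcl3, and at -71 and -70 in Cxcl1. Each sequence is the 250 bases before the start (RefSeq, GRCm38.p6), 5′ to 3′ on the strand of the gene.
Cxcl2 (chr5:90903649-90903898, plus strand): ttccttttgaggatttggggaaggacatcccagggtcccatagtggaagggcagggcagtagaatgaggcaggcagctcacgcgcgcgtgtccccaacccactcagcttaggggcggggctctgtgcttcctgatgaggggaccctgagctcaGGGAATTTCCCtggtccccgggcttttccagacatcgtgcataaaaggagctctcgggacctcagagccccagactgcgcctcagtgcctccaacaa
Cxcl3 (chr5:90785851-90786100, plus strand): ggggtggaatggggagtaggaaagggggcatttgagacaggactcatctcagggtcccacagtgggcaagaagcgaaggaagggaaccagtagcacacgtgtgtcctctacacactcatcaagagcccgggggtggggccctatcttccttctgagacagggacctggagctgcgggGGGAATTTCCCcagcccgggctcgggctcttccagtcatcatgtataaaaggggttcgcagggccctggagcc
Cxcl1 (chr5:90890995-90891244, plus strand): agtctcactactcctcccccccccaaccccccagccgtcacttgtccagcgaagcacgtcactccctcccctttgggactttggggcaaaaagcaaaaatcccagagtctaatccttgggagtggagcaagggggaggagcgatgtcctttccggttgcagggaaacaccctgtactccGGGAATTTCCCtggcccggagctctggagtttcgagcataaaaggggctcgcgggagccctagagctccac
The consensus was searched on both strands. It was present in these 3 of the 9 promoters matched for the axis (33.3%), in 7 of 16 for NF-kB pathway and feedback genes (43.8%), and in 1014 of 27025 windows of the same length over all genes (3.75%). A match describes letters and is not a binding site.

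Neutrophil genes rose with these chemokines. Of 30, 21 rose, 0 fell and 9 did not pass. The mean level of the list ran from 8.64 to 8.76 in 24 h wounds, against 5.56 to 6.01 in untreated skin. S100a9, 1 chain of the calprotectin that fills the neutrophil cytosol, lay at 13.63, 14.07, 13.44 and 13.49 on the 24 h wound arrays, against 7.12, 7.71, 6.41, 6.21 and 5.01 on the untreated arrays. It rose 144-fold, and its partner S100a8 rose 27.2-fold. Keratinocytes of a wound edge also make both. Other genes of the list rose too. Mmp8, neutrophil collagenase, lay at 7.93, 8.95, 7.95 and 7.79 on the 24 h wound arrays, against 3.42, 3.73, 4.20, 3.43 and 3.56 on the untreated arrays. Fpr2, a receptor for formylated peptides of bacteria and mitochondria, rose by 6.20, Trem1, an amplifier of inflammatory signals, by 4.61, and Cd177 at least 25.3-fold.

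Genes of neutrophil granules, which are transcribed mainly in the bone marrow, were split. Mmp8 rose as given above, and Lcn2, which epithelium also makes, by 4.77. Mpo averaged 5.06 ± 0.56 in 24 h wounds and 5.02 ± 0.57 in untreated skin (SD, n = 4 and 5), Elane 4.04 ± 0.19 in 24 h wounds and 3.85 ± 0.28 in untreated skin, Ltf 5.27 ± 0.22 in 24 h wounds and 4.86 ± 0.34 in untreated skin, and Camp 4.29 ± 0.12 in 24 h wounds and 4.48 ± 0.66 in untreated skin. None of these last 4 was called. Ngp, another granule gene, rose by 0.82, a call lost without wound replicate 2 (0.58, adjusted p = 0.062). Slfn4, a schlafen gene of myeloid cells, and Acod1, whose enzyme makes itaconate in activated phagocytes, were among the 15 largest rises, at 8.16 and 7.29. Ms4a4c and Stfa2l1, a stefin gene of myeloid cells, rose by 6.64 and 6.60.

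**Figure D2:**
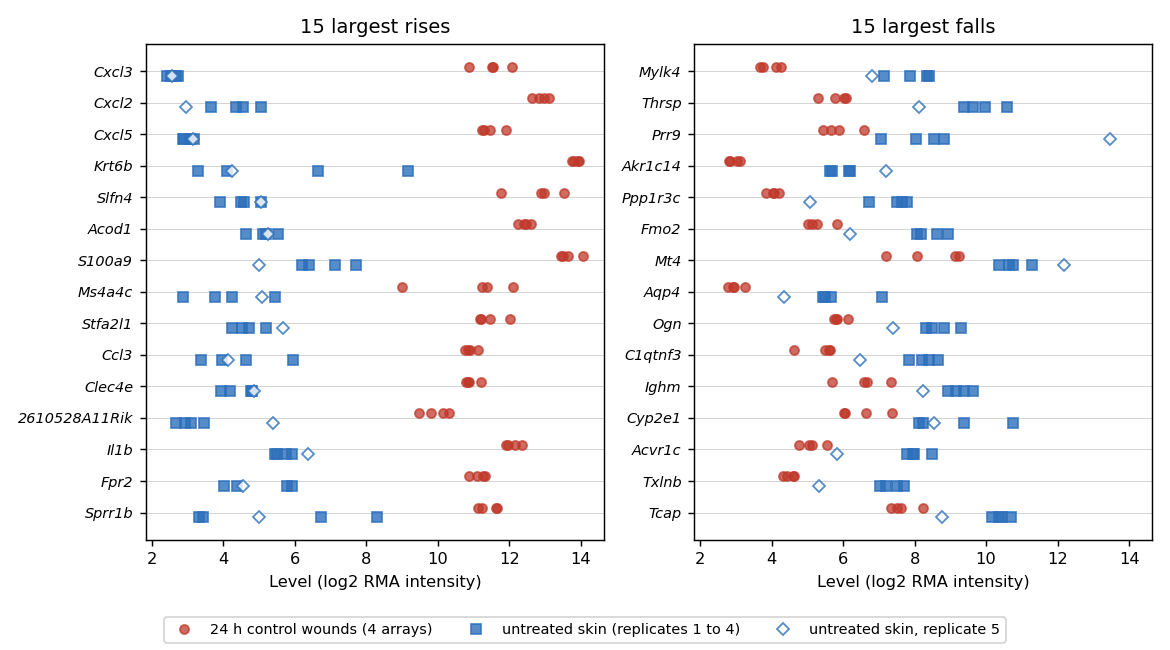
Level of the 15 genes with the largest rise and the 15 with the largest fall among called genes whose groups did not overlap, in log2 RMA intensity, each array a point. Red circles are the 4 wounds at 24 h, blue squares untreated replicates 1 to 4, and open diamonds untreated replicate 5, which stood far above all other arrays for Prr9, at 13.46.

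Chemokines that call monocytes rose next to these. Ccl3, a chemokine made by macrophages and neutrophils, lay at 10.86, 10.91, 10.76 and 11.14 on the 24 h wound arrays, against 3.98, 3.37, 5.94, 4.64 and 4.13 on the untreated arrays, a 90.8-fold rise, and Ccl4 rose by 4.73. The ligands of CCR2, the receptor of blood monocytes, rose as well. Ccl7 rose by 4.33, Ccl12 by 4.17 and Ccl2 by 3.30, and their receptor gene Ccr2 by 3.58. In all, 9 of 18 CC chemokines and 6 of 20 chemokine receptors rose and 0 of either fell. Ccl20, the ligand of CCR6, averaged 7.56 ± 0.56 in 24 h wounds and 6.94 ± 0.51 in untreated skin and did not pass. It was called without wound replicate 2 (change 0.69), where the count of CC chemokines was 12, and that count was 13 without untreated replicate 2. Ccl8 and Ccl11 were at 11.91 and 8.34 in 24 h wounds and at 11.60 and 8.58 in untreated skin, with no call.

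Among 39 monocyte and macrophage genes, 27 rose and 1 fell (median change 1.54). The largest rises were of genes that newly arrived or activated cells carry. Clec4e, the receptor Mincle, lay at 10.79, 11.21, 10.85 and 10.87 on the 24 h wound arrays, against 3.93, 4.77, 4.80, 4.18 and 4.86 on the untreated arrays. Chil3, a lectin of immature and alternatively activated myeloid cells, rose by 5.75, the Fc receptor gene Fcgr1 by 5.31, Cd14, the co-receptor for lipopolysaccharide, by 4.66, and Arg1, arginase, by 4.52. Of genes that resident macrophages express, some rose, while others, among them several not named here, had no call. Mrc1, the mannose receptor, rose by 0.85, Csf1r, the receptor of M-CSF, by 0.67 and C1qb, a chain of complement C1q, by 0.67. On untreated replicate 3, however, Mrc1 (10.88) and Csf1r (10.67) lay above every wound, and C1qb (11.185) lay within the range of the wounds. Timd4, a receptor for dying cells, rose by 1.11 but was dim, at 4.66 ± 0.23 in 24 h wounds and 3.55 ± 0.46 in untreated skin. Its untreated level is close to that of unexpressed genes. Among those without a call, Adgre1, a surface receptor of macrophages, averaged 8.70 ± 0.30 in 24 h wounds and 8.31 ± 1.12 in untreated skin, Cd163, a scavenger receptor, 10.18 ± 0.14 in 24 h wounds and 9.82 ± 0.52 in untreated skin, and C1qa 9.92 ± 0.37 in 24 h wounds and 9.74 ± 0.59 in untreated skin. Adgre1 was called without untreated replicate 3. That array had the highest mean level of the list among untreated arrays, 8.85 against a median of 7.48, still under the 9.63 to 9.88 of the wounds. Gpnmb, a lysosomal glycoprotein of tissue macrophages and melanocytes, was the single gene of the list that fell (-1.57 ± 0.38 (SE), adjusted p = 0.0011). In bulk skin, a change in the number of cells of a type and a change in RNA per cell cannot be told apart.

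Of 15 T cell genes 2 rose (13.3%, against 7.86% of all probe sets) and 0 fell. They were the granzymes Gzmb (1.18) and Gzma (1.01), and Cd3e averaged 6.91 ± 0.24 in 24 h wounds and 6.93 ± 0.06 in untreated skin. Of 14 mast cell genes 3 rose (21.4%) and 1 fell, and Cma1, the mast cell chymase, averaged 9.90 ± 0.18 in 24 h wounds and 9.82 ± 0.31 in untreated skin. Hdc, whose enzyme makes histamine in mast cells and neutrophils alike, rose by 3.02. Cd207, the langerin of Langerhans cells, fell (-0.80 ± 0.13 (SE)), while Cd74, the invariant chain of MHC class II, averaged 12.06 ± 0.41 in 24 h wounds and 12.01 ± 0.19 in untreated skin. Ighm, the heavy chain of immunoglobulin M, lay at 6.68, 5.68, 7.35 and 6.57 on the 24 h wound arrays, against 9.63, 9.15, 9.37, 8.93 and 8.25 on the untreated arrays, and was the largest fall of any leukocyte gene listed. Other B cell genes stayed low in both groups, with Cd79a at 4.03 ± 0.05 in 24 h wounds and 3.93 ± 0.07 in untreated skin.

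The inflammatory cytokines rose in the same wounds. Il1b, the interleukin cut by the inflammasome, lay at 12.17, 12.34, 11.96 and 11.90 on the 24 h wound arrays, against 5.51, 5.93, 5.76, 5.46 and 6.38 on the untreated arrays, a rise of 78-fold (adjusted p = 5.9e-11). Il6 lay at 8.23, 7.89, 8.32 and 7.71 on the 24 h wound arrays, against 3.18, 3.30, 3.05, 2.98 and 3.12 on the untreated arrays. Its untreated level is that of unexpressed genes, so the rise was at least 22.9-fold. Tnf rose 9.58-fold, and Osm, the oncostatin M that leukocytes send to keratinocytes, 5.08-fold. For these 4 genes no wound array overlapped an untreated one, as held for 21.4% of all probe sets.

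Within the IL-1 family, 9 of 17 genes rose and 1 fell. Il1a rose by 1.83, the natural antagonist Il1rn by 2.72, and Il33, an alarmin of epithelium and stroma, by 2.30. The decoy receptor Il1r2 rose by 0.77, a call lost without untreated replicate 5, where its change of 0.58 was under 1.5-fold. The IL-36 agonists are named by their older symbols in the annotation. Il1f9, or IL-36 gamma, rose by 2.17. Il1f6, or IL-36 alpha, averaged 6.67 ± 0.25 in 24 h wounds and 6.67 ± 0.65 in untreated skin, and Il1f8, or IL-36 beta, 6.22 ± 0.48 in 24 h wounds and 6.74 ± 0.76 in untreated skin, with no call. Il1f5, their antagonist, fell (-0.78 ± 0.20 (SE)).

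Among genes of NF-kB and its feedback, 16 of 18 rose and 0 fell (median change 1.20). Nfkbia, whose product holds NF-kB in the cytoplasm, lay at 11.68, 11.82, 11.68 and 11.89 on the 24 h wound arrays, against 10.79, 10.55, 10.28, 10.64 and 9.75 on the untreated arrays. Tnfaip3, the enzyme A20 that shuts the pathway down, rose by 2.04, Nfkbid by 2.73, Bcl3 by 2.31 and Nfkbiz by 1.13. Rela, the main subunit, averaged 9.80 ± 0.05 in 24 h wounds and 9.31 ± 0.05 in untreated skin, under the 1.5-fold threshold. For the IL-6 family and STAT3 targets, 16 of 21 rose and 0 fell. Socs3, which shuts off the receptors of IL-6 and leptin, lay at 10.92, 11.07, 10.98 and 10.86 on the 24 h wound arrays, against 7.68, 7.91, 7.68, 7.20 and 7.60 on the untreated arrays. Its 4 wound values were all well above untreated skin. Lif averaged 5.30 ± 0.11 in 24 h wounds and 4.94 ± 0.20 in untreated skin, with no call.

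Of 28 receptors and adaptors that sense microbes and damage, 22 rose and 1 fell. Tlr2, a sensor of bacterial lipoproteins, rose by 3.57, Tlr4, the sensor of lipopolysaccharide, by 1.12, Nlrp3, the inflammasome sensor, by 2.38, and Clec7a, the fungal receptor Dectin-1, by 3.78. Ptgs2, the inducible cyclooxygenase, lay at 8.03, 8.81, 7.67 and 8.69 on the 24 h wound arrays, against 3.00, 3.38, 3.42, 3.40 and 2.76 on the untreated arrays, a rise of at least 27.5-fold. Ptges, which turns its product into prostaglandin E2, rose by 0.75. Alox5ap, which hands arachidonate to 5-lipoxygenase, rose by 2.18, and Alox5 itself averaged 7.60 ± 0.06 in 24 h wounds and 7.42 ± 0.24 in untreated skin. Hpgd, which inactivates prostaglandins, fell (-1.19 ± 0.18 (SE)), as did the receptor gene Ptger3 (-1.06 ± 0.20 (SE)). On the vessel wall, Icam1 and Selp, which hold leukocytes, rose by 2.01 and 1.31, while Sele averaged 3.44 ± 0.04 in 24 h wounds and 3.32 ± 0.16 in untreated skin and Vcam1 7.19 ± 0.43 in 24 h wounds and 6.63 ± 0.38 in untreated skin.

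The IL-20 subfamily was of interest because the study treats wounds with IL-22-Fc. Il24, a cytokine of this family that keratinocytes and leukocytes make after injury, lay at 6.79, 6.63, 5.80 and 5.78 on the 24 h wound arrays, against 4.31, 4.10, 4.26, 4.00 and 4.49 on the untreated arrays. All 4 wounds were above untreated skin, with a change of 2.02 ± 0.30 (SE) (adjusted p = 9.1e-07). Il20 averaged 4.78 ± 0.20 in 24 h wounds and 4.52 ± 0.27 in untreated skin, Il10 4.72 ± 0.46 in 24 h wounds and 4.20 ± 0.66 in untreated skin, and neither passed. Il19 and Il22 were not analysed here. The receptor chains were split. Il10ra, the chain specific to IL-10, rose by 2.17, and Il10rb, which pairs with Il22ra1 for IL-22, had a change of 0.56 (adjusted p = 0.0016) just under the 1.5-fold threshold, and was called without wound replicate 1 or 4 or untreated replicate 1 (0.59 to 0.63). Il22ra1, the chain that IL-20, IL-22 and IL-24 share, lay at 5.51, 5.65, 5.60 and 5.70 on the 24 h wound arrays, against 6.59, 6.46, 6.40, 6.97 and 5.73 on the untreated arrays. Its change was -0.81 ± 0.15 (SE) (adjusted p = 2.8e-05), with the lowest untreated value on replicate 5. Il20ra fell as well (-0.73 ± 0.16 (SE)). Il20rb, the partner chain, had a change of -0.51 that was under the 1.5-fold threshold, and -0.59 without untreated replicate 5, when it was called.

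Il22ra2, the secreted IL-22 binding protein that keeps IL-22 from its receptor, lay at 7.52, 7.66, 7.43 and 8.16 on the 24 h wound arrays, against 10.09, 9.08, 9.52, 10.06 and 5.46 on the untreated arrays. 4 untreated arrays were above every wound and replicate 5 was below every wound. Over all 9 arrays its change of -1.15 did not pass (adjusted p = 0.052); without replicate 5 it was -2.00 (adjusted p = 2e-08).

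Of 31 interferon-stimulated genes, 29 rose and 0 fell (median change 1.99), the highest share of calls of any list over all 9 arrays. Without untreated replicate 5 the adipocyte list had a higher one. Interferons switch these genes on, and many of the gene products block the growth of viruses. Rsad2, the antiviral enzyme viperin, lay at 11.69, 8.25, 12.87 and 11.40 on the 24 h wound arrays, against 5.36, 6.07, 7.16, 6.43 and 5.58 on the untreated arrays. Ifit1, which binds viral RNA, lay at 11.10, 7.82, 12.29 and 11.00 on the 24 h wound arrays, against 4.51, 6.00, 7.00, 6.38 and 7.06 on the untreated arrays. Irf7, the factor that amplifies interferon production, lay at 10.78, 8.29, 12.19 and 10.77 on the 24 h wound arrays, against 6.05, 6.54, 7.59, 6.60 and 7.03 on the untreated arrays. Wound replicate 2 was the lowest of the wounds for all 3 genes and replicate 3 the highest, and for all 3 replicate 2 lay nearest to the untreated range.

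The mean level of the list was 9.60, 7.77, 10.45 and 9.36 on the wound arrays, against 6.42, 7.03, 7.39, 6.88 and 6.92 on the untreated arrays. Wound replicate 2, at 7.77, was the only wound near the untreated arrays. Cxcl10, a chemokine gene that interferon induces, lay at 11.48, 8.17, 12.77 and 11.29 on the 24 h wound arrays, against 4.10, 6.21, 6.55, 4.73 and 5.53 on the untreated arrays. Without wound replicate 2, Rsad2 changed by 5.87, Ifit1 by 5.27 and Irf7 by 4.48, against 4.93, 4.36 and 3.74 with it. For the mean of neutrophil genes all 4 wounds lay within 8.64 to 8.76, but single myeloid genes varied more. Slfn4, of that list, lay at 12.88, 11.78, 13.52 and 12.96 on the wound arrays. Ms4a4c lay at 11.25, 9.01, 12.10 and 11.37 there, and Fcgr1 at 11.09, 9.64, 12.04 and 11.03. These genes too were lowest on wound replicate 2 and highest on replicate 3, whereas S100a9 and Mmp8 were highest on replicate 2. Ifng averaged 3.05 ± 0.18 in 24 h wounds and 2.77 ± 0.17 in untreated skin, at the level of unexpressed genes. Tap1 and Ifi27l2a were the 2 members with no call, and Ifi27l2a was high in both groups, at 10.27 ± 1.06 in 24 h wounds and 10.38 ± 0.59 in untreated skin.

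**Figure D3:**
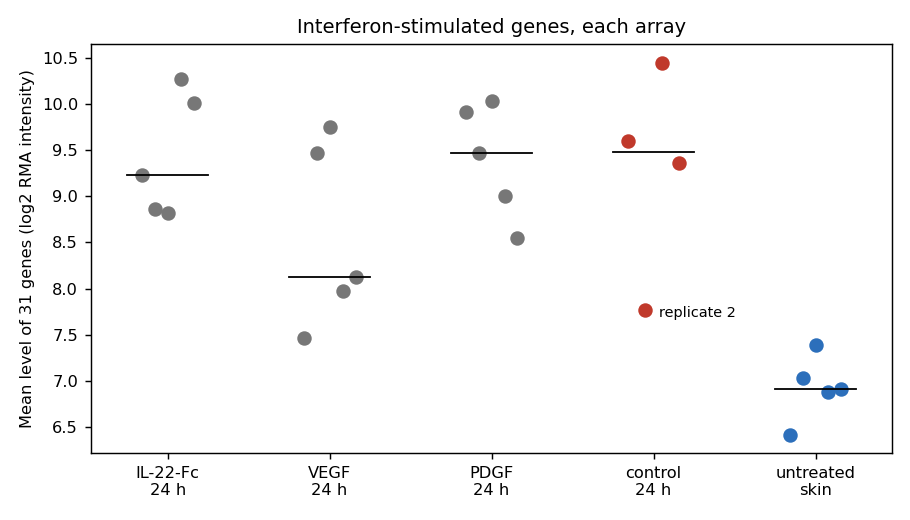
Mean level of the 31 interferon-stimulated genes on each array, in log2 RMA intensity, in the 4 groups of 24 h wounds and in untreated skin, each array a point and each line the group median. Control wounds at 24 h ran from 7.77, on replicate 2, to 10.45, and untreated skin from 6.42 to 7.39. The vertical axis does not start at 0.

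Promoters of Rsad2, Ifit1, Ifit3 and Cxcl10 are shown, as these genes were among the largest interferon rises and hold the interferon-stimulated response element. This is a run of letters known from promoters that interferon switches on. Cxcl10 is not among the 31 genes of the list. The window of Irf7, whose levels are given above, held 0 matches of the element and is not shown. The motif searched was GAAANNGAAA on both strands, in capitals below. Cxcl10 also matches the kappaB consensus, at -159 and -103, which is left in lower case. Each is the 250 bases before the start, as above.
Rsad2 (chr12:26456453-26456702, minus strand): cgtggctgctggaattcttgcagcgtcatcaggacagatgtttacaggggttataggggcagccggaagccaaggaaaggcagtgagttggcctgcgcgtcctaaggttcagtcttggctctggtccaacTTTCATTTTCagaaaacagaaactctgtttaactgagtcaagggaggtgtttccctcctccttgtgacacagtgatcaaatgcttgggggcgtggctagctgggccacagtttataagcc
Ifit1 (chr19:34640639-34640888, plus strand): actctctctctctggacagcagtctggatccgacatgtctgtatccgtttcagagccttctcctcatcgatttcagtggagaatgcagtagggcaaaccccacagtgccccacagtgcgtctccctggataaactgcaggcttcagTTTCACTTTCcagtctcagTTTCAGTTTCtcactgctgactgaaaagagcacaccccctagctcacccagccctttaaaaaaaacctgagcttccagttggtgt
Ifit3 (chr19:34583279-34583528, plus strand): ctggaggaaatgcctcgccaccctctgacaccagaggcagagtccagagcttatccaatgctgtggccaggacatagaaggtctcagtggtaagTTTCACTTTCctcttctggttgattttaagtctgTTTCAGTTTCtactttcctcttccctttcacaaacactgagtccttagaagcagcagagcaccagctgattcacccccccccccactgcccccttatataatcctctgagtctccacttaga
Cxcl10 (chr5:92348890-92349139, minus strand): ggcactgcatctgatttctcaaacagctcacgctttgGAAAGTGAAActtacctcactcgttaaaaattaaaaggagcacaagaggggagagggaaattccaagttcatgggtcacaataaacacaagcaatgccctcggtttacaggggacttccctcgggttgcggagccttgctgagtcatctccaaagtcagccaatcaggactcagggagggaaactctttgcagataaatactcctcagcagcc
The element began at -120 in Rsad2, at -104 and -85 in Ifit1, at -156 and -122 in Ifit3 and at -213 in Cxcl10. It was present in 10 of 24 promoters matched for the list (41.7%) and in 821 of 27025 over all genes (3.04%). Of the 2 motifs, the promoter windows of the CXCR2 axis held the kappaB consensus only, in the 3 printed above.

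Keratins of activated epidermis rose. Krt6b, a keratin of activated epidermis, lay at 13.93, 13.95, 13.82 and 13.74 on the 24 h wound arrays, against 6.67, 9.17, 3.31, 4.11 and 4.26 on the untreated arrays, a rise of 328-fold and the largest of any keratinocyte gene. Krt16, its partner, lay at 13.21, 13.26, 12.91 and 12.90 on the 24 h wound arrays, against 7.68, 10.49, 6.34, 7.75 and 6.88 on the untreated arrays, and Krt6a rose by 3.67. Untreated replicate 2 was the highest of its group for Krt6b and Krt16, as it was for S100a9. Krt17 was high in untreated skin already, at 11.52, and rose by 0.96. Sprr1b, a cross-linked protein of the cornified envelope, rose by 6.06, and the gap junction genes Gjb2 and Gjb6 by 2.82 and 2.76. In all, 18 of 26 activation genes rose and 3 fell (all probe sets: 7.86% and 10.3%).

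The ligands of the EGF receptor split. Hbegf rose by 1.57, Epgn, epigen, by 1.95 and Tgfa by 0.63. Ereg, epiregulin, lay at 8.53, 8.74, 8.02 and 8.73 on the 24 h wound arrays, against 10.14, 10.50, 9.82, 11.04 and 8.30 on the untreated arrays, a fall of 2.75-fold, and Btc, betacellulin, fell 3.72-fold and Egf 2.41-fold. The receptor gene Egfr averaged 5.66 ± 0.49 in 24 h wounds and 5.92 ± 0.39 in untreated skin. Of 20 genes of migrating keratinocytes, 10 rose and 0 fell. Mmp13, collagenase-3, lay at 9.39, 7.65, 9.01 and 8.25 on the 24 h wound arrays, against 2.76, 3.40, 4.48, 3.38 and 3.22 on the untreated arrays, a rise of at least 33.3-fold. Plaur, the urokinase receptor, rose by 2.57, Lama3, a chain of laminin-332, by 0.99 and Itga5, the fibronectin receptor chain, by 0.66, while Itgb5 averaged 8.34 ± 0.19 in 24 h wounds and 8.79 ± 0.15 in untreated skin.

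Krt5, the main keratin of basal cells, averaged 13.47 ± 0.06 in 24 h wounds and 13.21 ± 0.16 in untreated skin, and of 17 basal cell genes 2 rose and 2 fell (11.8% each, against 7.86% and 10.3% of all probe sets), among them Pdpn, podoplanin, up by 2.96, and Krt15, a keratin of the follicle bulge and of resting basal cells, which fell (-0.79 ± 0.20 (SE)).

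Late differentiation was lower, with 19 of 45 genes down and 4 up (median change -0.56). Flg, filaggrin, which packs keratin filaments in the last living layer, lay at 6.47, 6.52, 6.79 and 7.09 on the 24 h wound arrays, against 8.84, 8.62, 8.46, 8.98 and 10.38 on the untreated arrays. It fell 5.07-fold (adjusted p = 2e-05). Mt4, a metallothionein of differentiating epithelium, fell 6.22-fold. The first suprabasal keratins changed less: Krt1 averaged 12.66 ± 0.15 in 24 h wounds and 13.07 ± 0.32 in untreated skin, Krt10 13.38 ± 0.08 in 24 h wounds and 13.85 ± 0.17 in untreated skin and Lor, loricrin, 13.23 ± 0.21 in 24 h wounds and 13.77 ± 0.06 in untreated skin, each under the 1.5-fold threshold.

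Within the late cornified envelope cluster the 2 gene groups parted. The 4 genes that rose were all of the Lce3 group, Lce3f by 2.47, Lce3a by 2.30, Lce3c by 1.38 and Lce3b by 1.38. Genes of the Lce1 group were lower or without a call, with Lce1m at -1.91, Lce1l at -1.26 and Lce1f at -1.01. These neighbours are close in sequence, and how far 1 probe set reads several of them was not tested. Lce3f lay at 9.46, 8.92, 8.66 and 8.61 on the 24 h wound arrays, against 5.90, 7.26, 5.72, 6.85 and 6.47 on the untreated arrays. The groups did not overlap.

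Of 28 genes for barrier lipids 1 rose and 5 fell (all probe sets: 7.86% and 10.3%). Degs2, a desaturase that hydroxylates ceramides, rose by 1.38. Abca12 (-0.71), which loads lipids into lamellar granules, was among those that fell. Without untreated replicate 5 the count lower was 10. Elovl4, which builds very long chains for ceramides, averaged 12.13 ± 0.26 in 24 h wounds and 12.54 ± 0.76 in untreated skin. Among defence genes of the epidermis, Slpi, an inhibitor of neutrophil elastase, rose by 5.04, Lcn2, which takes iron from bacteria, by 4.77 and Defb3 by 2.27. Defb1, a defensin that resting skin makes, fell (-0.71 ± 0.22 (SE)).

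Acute phase genes better known from liver rose in the wounds. Saa3, a serum amyloid A of macrophages and fat, lay at 11.19, 11.15, 10.74 and 11.00 on the 24 h wound arrays, against 4.96, 7.09, 5.64, 5.40 and 4.78 on the untreated arrays. Its wounds were all above untreated skin (43.6-fold). Saa1 rose at least 10.6-fold, and Ptx3, a pentraxin that opsonises microbes, by 5.32. Lrg1, a glycoprotein of the acute phase and of vessels, rose by 1.87.

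1 untreated array carried the transcripts of growing hair follicles. Krt71, an inner root sheath keratin, lay at 5.83, 5.64, 5.46 and 5.50 on the 24 h wound arrays, against 5.69, 5.66, 5.58, 5.57 and 12.66 on the untreated arrays, and Krt27 at 4.01, 4.09, 3.78 and 4.18 on the 24 h wound arrays, against 4.05, 4.35, 4.00, 3.96 and 13.16 on the untreated arrays. On replicate 5 both were far above the other 8 arrays, which lay together. The mean level of 45 shaft and sheath genes was 8.94 there, against 4.09 to 4.11 for the lowest and the median untreated array and 4.11 to 4.24 for the wounds. Melanocyte genes, which are active in growing follicles, were high on the same array, at a mean of 8.92 against a median of 5.38. Of 45 hair genes 2 were called lower, and of 10 melanocyte genes 4, against 10.3% of all probe sets. Dct, an enzyme of melanin synthesis, changed by -1.99 with that array and by -0.98 without it (adjusted p = 0.00078).

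Genes of the resting follicle and its stem cells were lower with or without that array. Of 16, 0 rose and 11 fell, and 10 fell without it. Lhx2, a factor that keeps the bulge, lay at 6.67, 6.10, 6.87 and 6.68 on the 24 h wound arrays, against 7.51, 7.72, 7.66, 7.75 and 9.54 on the untreated arrays. Lgr5, a receptor on cycling and lower bulge stem cells, fell (-0.87 ± 0.20 (SE)), as did Cd34 (-0.82 ± 0.19 (SE)), which fibroblasts and vessels also express. Sebaceous genes gave 1 higher and 4 lower of 15 (all probe sets: 7.86% and 10.3%), and 0 and 7 without replicate 5.

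The count of cell cycle genes turned on the same array. Of 43, 4 rose and 0 fell over all 9 arrays (all probe sets: 7.86% and 10.3%), and 23 rose and 0 fell without it. The mean level of the list was 7.07 to 7.69 in wounds, against a lowest of 6.47, a median of 6.95 and a highest of 8.29 in untreated skin, the highest being replicate 5. Cdk1, the kinase that starts mitosis, lay at 8.26, 8.17, 8.05 and 7.62 on the 24 h wound arrays, against 6.51, 7.18, 7.65, 7.00 and 8.89 on the untreated arrays. Its change was 0.58 with replicate 5 (adjusted p = 0.052) and 0.94 without it (adjusted p = 2.1e-05). Mki67, the proliferation marker, averaged 9.99 ± 0.42 in 24 h wounds and 9.79 ± 0.97 in untreated skin, and Ccnd1, cyclin D1, 7.39 ± 0.28 in 24 h wounds and 7.92 ± 0.72 in untreated skin. Leaving out untreated replicate 1 gave 1 call, and leaving out untreated replicate 3 or wound replicate 4 gave 7.

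**Figure D4:**
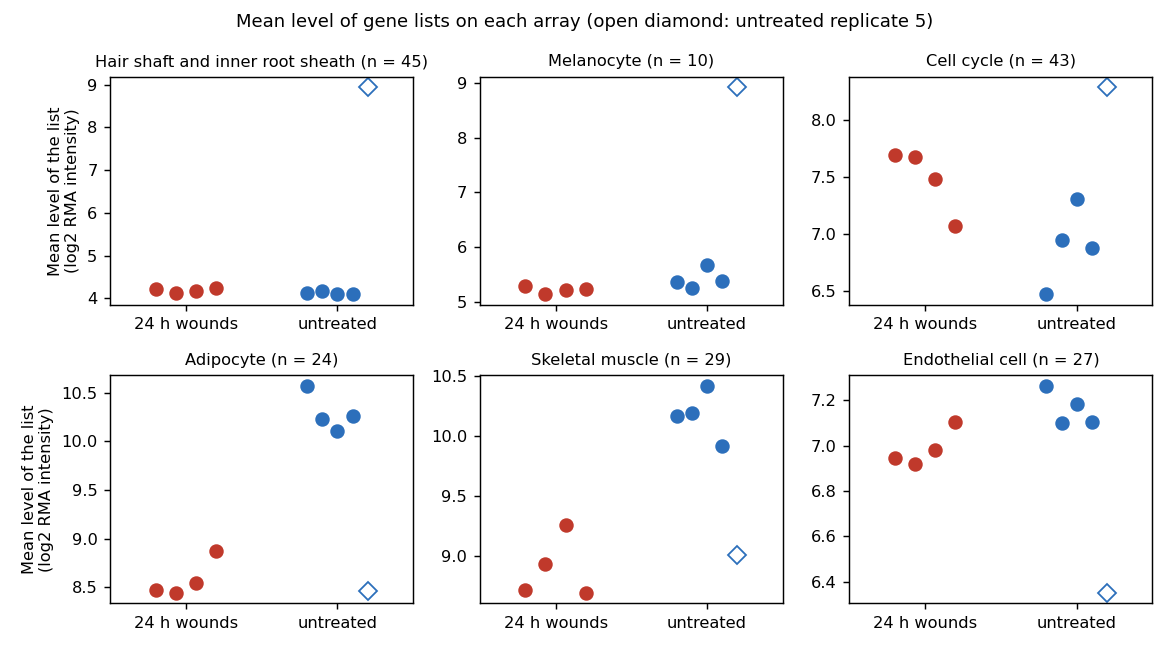
Mean level of 6 gene lists on each of the 9 arrays, in log2 RMA intensity, 24 h wounds as red points on the left and untreated arrays as blue points on the right of each panel, with untreated replicate 5 as an open diamond and the number of genes in each title. Replicate 5 stood alone above the other arrays for hair shaft, melanocyte and cell cycle genes, and was the lowest of the untreated arrays for adipocyte, muscle and endothelial genes. The vertical axes differ between panels and do not start at 0.

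Genes of fat and of the muscle below the dermis fell together. Of 24 adipocyte genes 21 fell and 0 rose (median change -1.20). Thrsp, a regulator of fat synthesis, lay at 5.79, 5.29, 6.09 and 6.03 on the 24 h wound arrays, against 10.58, 9.97, 9.64, 9.40 and 8.14 on the untreated arrays, a fall of 13.4-fold. Adipoq, adiponectin, averaged 11.87 ± 0.24 in 24 h wounds and 12.77 ± 0.51 in untreated skin, a fall of 1.87-fold, Retn, resistin, fell 3.3-fold and Lep, leptin, 2.49-fold. Lep lay at 9.76, 9.95, 9.78 and 10.73 on the 24 h wound arrays, against 12.71, 12.36, 11.89, 12.31 and 7.59 on the untreated arrays, so that untreated replicate 5 was below every wound and the others above, and its call held only without that array (-2.26) or without wound replicate 4 among the fits that left out 1 array. Untreated replicate 5 had the lowest mean level of the list among untreated arrays (8.46, against a median of 10.23), within the 8.45 to 8.87 of the wounds. Without it, all 24 genes were called lower.

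Of 29 skeletal muscle genes 23 fell and 0 rose (median change -1.15). Mouse skin has a thin muscle sheet beneath it. Tcap, a sarcomere protein, lay at 7.35, 7.63, 8.23 and 7.51 on the 24 h wound arrays, against 10.35, 10.46, 10.69, 10.16 and 8.75 on the untreated arrays, and Mylk4, a kinase of muscle, at 4.13, 3.75, 4.26 and 3.69 on the 24 h wound arrays, against 7.88, 8.36, 8.42, 7.14 and 6.81 on the untreated arrays. Ckm, creatine kinase, fell 2.01-fold and Mylpf, a fast myosin light chain, 2.54-fold, while Acta1, skeletal actin, averaged 12.71 ± 0.24 in 24 h wounds and 13.09 ± 0.49 in untreated skin with no call. How much muscle and fat each sample took in is not labelled, and its part in these falls was not tested. Untreated replicate 5 was again the lowest of its group, at a mean of 9.01 against a median of 10.16 and 8.69 to 9.26 for the wounds. Under cyclic loess normalization of the 9 arrays 13 adipocyte and 15 muscle genes were called lower.

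Dermal matrix genes were lower in part. Of 39, 17 fell and 2 rose (median change -0.46). The strongest falls were of small proteoglycans and of genes of resting fibroblasts. Aspn, asporin, lay at 6.36, 7.33, 6.33 and 6.34 on the 24 h wound arrays, against 10.12, 9.43, 9.96, 10.08 and 7.27 on the untreated arrays, and Ogn, osteoglycin, fell 6.01-fold. Col14a1, a collagen of the fibril surface, fell 4.06-fold.

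The major collagens moved less. Col1a1 lay at 9.83, 9.10, 10.26 and 9.98 on the 24 h wound arrays, against 9.98, 9.52, 11.15, 10.40 and 12.24 on the untreated arrays, with a change of -0.87 ± 0.32 (SE) (adjusted p = 0.029), and Col1a2 at -0.90. Both calls were lost without untreated replicate 5 (Col1a1 -0.47, adjusted p = 0.16), without wound replicate 2 (-0.63, adjusted p = 0.14) and without untreated replicate 3 (-0.74), and that of Col1a1 also without wound replicate 1 (-0.88). Col3a1 averaged 10.47 ± 0.49 in 24 h wounds and 10.78 ± 0.56 in untreated skin, Lum 10.73 ± 0.26 in 24 h wounds and 11.10 ± 0.55 in untreated skin and Pdgfra, the receptor that marks fibroblasts, 7.02 ± 0.16 in 24 h wounds and 6.56 ± 0.26 in untreated skin, with no call.

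In the joint list for pericytes and smooth muscle, 8 of 16 members were down and 0 up. Mylk, Myh11, Actg2, Tagln and Myl9, which belong to smooth muscle, were among those down. Cspg4 (-0.32), Notch3 (-0.14) and Des (-0.08) had no call, so a fall of pericyte genes as a class was not shown. Rgs5, a marker of pericytes, had the largest fall. It lay at 6.39, 6.93, 6.60 and 6.29 on the 24 h wound arrays, against 8.72, 8.71, 8.77, 8.51 and 6.24 on the untreated arrays. Untreated replicate 5 was the exception, below every wound. Acta2, smooth muscle actin, averaged 11.34 ± 0.06 in 24 h wounds and 11.79 ± 0.21 in untreated skin. Pdgfrb, another marker of pericytes, went the other way, at 9.99 ± 0.22 in 24 h wounds and 9.54 ± 0.10 in untreated skin. Its change of 0.44 (adjusted p = 0.001) was under the 1.5-fold threshold. Pecam1, a marker of endothelium, averaged 7.82 ± 0.17 in 24 h wounds and 7.42 ± 0.51 in untreated skin, and of 27 endothelial genes 3 rose and 4 fell (11.1% and 14.8%, against 7.86% and 10.3% of all probe sets), or 2 and 7 without untreated replicate 5. Apln, a peptide of sprouting tip cells, and Angpt2, which loosens vessels, rose by 1.51 and 1.05, and Angpt1, which steadies them, fell (-0.83 ± 0.21 (SE)). Vegfa averaged 7.37 ± 0.11 in 24 h wounds and 7.26 ± 0.15 in untreated skin.

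The enzymes that cut the matrix rose. Of 25 matrix proteases and inhibitors 11 rose and 3 fell (all probe sets: 7.86% and 10.3%). Mmp3, stromelysin-1, rose by 3.22 and Mmp9 by 3.36. The inhibitors split: Timp1 lay at 11.52, 11.63, 11.46 and 11.30 on the 24 h wound arrays, against 5.82, 7.81, 7.61, 7.29 and 6.47 on the untreated arrays, a rise of 22.3-fold, while Timp3, which stays bound to the matrix, fell 4.2-fold and Timp2 2.38-fold. For Timp1 the 4 wounds stood far above untreated skin. Of 20 genes of the provisional matrix 12 rose and 0 fell, among them Thbs1, thrombospondin-1 of platelets and macrophages (3.68), Vcan, versican (2.72), Fn1, fibronectin (2.55), and Tnc, tenascin-C (1.60). Has3 and Has2, which make hyaluronan, rose by 3.57 and 1.56. Of 18 genes of clotting and plasmin, 8 rose and 2 fell (all probe sets: 7.86% and 10.3%). F10, coagulation factor X, rose by 3.93, Thbd, thrombomodulin, by 1.75, and Vwf, von Willebrand factor, fell (-0.73 ± 0.16 (SE)).

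Growth factors that fibroblasts and fat provide were lower: 6 of 18 fell and 1, Met, the receptor of hepatocyte growth factor, rose (1.02). Among all probe sets 10.3% were lower and 7.86% higher. Igf1 fell (-0.99 ± 0.20 (SE)), as did Fgf10 (-0.71 ± 0.13 (SE)), while Fgf7, which acts on keratinocytes, averaged 7.69 ± 0.19 in 24 h wounds and 7.88 ± 0.18 in untreated skin. Of 27 genes of TGF-beta, activin and BMP signalling 4 rose and 6 fell (all probe sets: 7.86% and 10.3%). Tgfb1 rose by 1.13 and Inhba, an activin chain, by 0.96, while Tgfb2 (-1.39) and Bmp2 (-1.32) fell.

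Genes of glucose use rose. Of 27 genes of glycolysis and hypoxia, 14 rose and 2 fell. Slc2a1, the glucose carrier GLUT1, lay at 10.90, 11.36, 11.00 and 11.03 on the 24 h wound arrays, against 9.55, 10.08, 9.30, 9.62 and 9.32 on the untreated arrays, and Slc16a3, which exports lactate, rose by 2.19. Pkm rose by 1.46 and Pgk1 by 0.96, while Ldha, lactate dehydrogenase A, changed by 0.41 with no call. Of 34 genes of the respiratory chain 0 rose and 1 fell (all probe sets: 7.86% and 10.3%). The gene that fell was Cox7a1 (-1.02), a subunit of muscle and fat. Sterol and fatty acid synthesis was lower, with 14 of 29 genes down and 0 up, among them Scd2 (-1.47), Sc5d (-1.24) and Fasn (-0.87). Hmgcs1, an early enzyme of sterol synthesis, fell (-0.61 ± 0.20 (SE)), and Sqle averaged 10.07 ± 0.23 in 24 h wounds and 10.34 ± 0.16 in untreated skin.

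Stress genes rose in part. Of 29 genes of the integrated stress response and unfolded protein response, 14 rose and 1 fell. Slc7a11, which brings in cystine for glutathione, lay at 7.10, 8.68, 6.53 and 7.41 on the 24 h wound arrays, against 2.99, 3.47, 2.84, 2.63 and 4.52 on the untreated arrays, a rise of at least 15-fold. Atf3 rose by 1.95 and Hspa5, the chaperone BiP, by 0.74. Atf4 averaged 11.07 ± 0.03 in 24 h wounds and 10.51 ± 0.16 in untreated skin. Ddit3 averaged 8.34 ± 0.16 in 24 h wounds and 7.80 ± 0.17 in untreated skin. Their changes of 0.57 and 0.53 (adjusted p = 1.9e-06 and 0.003) were just under the 1.5-fold threshold, and Atf4 was called without untreated replicate 5 (0.63). Of 24 genes of oxidative stress 11 rose and 7 fell (all probe sets: 7.86% and 10.3%). Hmox1, which degrades haem, rose by 2.00, and Mt1 and Mt2, the common metallothioneins, by 1.21 and 1.18. Arg1 was joined by Arg2 (3.12) and Odc1, the first enzyme of polyamine synthesis (1.30), while Nos2, which competes for arginine, averaged 4.84 ± 0.18 in 24 h wounds and 4.42 ± 0.16 in untreated skin.

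Of 30 immediate early genes 16 rose and 2 fell (all probe sets: 7.86% and 10.3%). Zfp36, which destroys cytokine mRNAs, rose by 2.05, Junb by 1.67, Fosl1 by 1.86 and Fos by 1.22, while Egr1 averaged 11.08 ± 0.22 in 24 h wounds and 10.83 ± 0.65 in untreated skin. Klf4, a factor of the differentiating epidermis, fell (-1.11 ± 0.14 (SE)). Of 18 clock genes 2 rose and 6 fell (all probe sets: 7.86% and 10.3%). Arntl, or BMAL1, fell (-0.85 ± 0.13 (SE)), Clock fell (-0.67 ± 0.20 (SE)) and Bhlhe40 rose by 1.31. The hour of sampling is not labelled. The count lower was 10 without untreated replicate 5 and 3 without untreated replicate 1 or 4.

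Day 7 control wounds, dosed again on days 2, 4 and 6 and sampled as 5 arrays of a 2-mm ring of skin around the wound, give the level of these genes later in the response. This comparison uses the same 4 wounds at 24 h, so it shares their values with the one above. How the 24 h wounds and the untreated skin were cut is not given, so the tissue pieces may differ in both comparisons. Of 20672 probe sets 1251 (6.05%) were higher at 24 h and 1487 (7.19%) were lower. The signals were highest at 24 h. Cxcl2 averaged 4.13 in untreated skin, 12.89 at 24 h and 8.77 at day 7, a difference of 4.12 between the times (adjusted p = 1.1e-05). Il6 differed by 2.22, Tnf by 3.04 and Rsad2 by 4.28. Of the lists, 29 of 31 interferon genes, 17 of 18 NF-kB genes, 16 of 30 neutrophil genes and 7 of 11 genes of the CXCR2 axis were higher at 24 h than at day 7.

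Genes of activated keratinocytes were high at both times. Krt6b averaged 5.50 in untreated skin, 13.86 at 24 h and 14.20 at day 7 (difference -0.34, adjusted p = 0.7), and of 26 such genes 6 were higher and 4 lower at 24 h than at day 7. S100a8 averaged 13.61 at 24 h and 13.45 at day 7, and Saa3 11.02 and 11.23, with no call. Other genes were lower at 24 h than at day 7. Col1a1 averaged 10.66 in untreated skin, 9.79 at 24 h and 13.32 at day 7 (difference -3.53, adjusted p = 6.1e-11), and 30 of 39 dermal matrix genes were lower at 24 h than at day 7 and 0 higher. Aspn averaged 9.37, 6.59 and 11.00 over the same 3 states. Mmp13, up at 24 h already, was lower then than at day 7 (-2.06).

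Several resident macrophage genes were lower at 24 h than at day 7. Vsig4, a complement receptor of tissue macrophages, averaged 5.46 in untreated skin, 4.79 at 24 h and 7.79 at day 7 (difference -3.00, adjusted p = 9.8e-08). C1qa (-1.62), Cd163 (-1.14) and Adgre1 (-0.97) were lower at 24 h as well, while Timd4 was higher (1.38) and Mrc1 (-0.47) and Csf1r (-0.53) were not called. Timd4 averaged 3.27 at day 7, the level of unexpressed genes. Vsig4, C1qa, Cd163 and Adgre1 had no call against untreated skin over all 9 arrays. Without untreated replicate 5, Vsig4 was called lower at 24 h (-1.11, adjusted p = 0.0059). Among monocyte and macrophage genes 14 were higher at 24 h and 11 lower. Flg averaged 9.06, 6.72 and 11.41 in untreated skin, at 24 h and at day 7, and 26 of 45 late differentiation genes were lower at 24 h than at day 7. Il1f6 and Il1f8, without a call against untreated skin, were lower at 24 h than at day 7, with differences of -2.31 and -2.37.

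**Figure D5:**
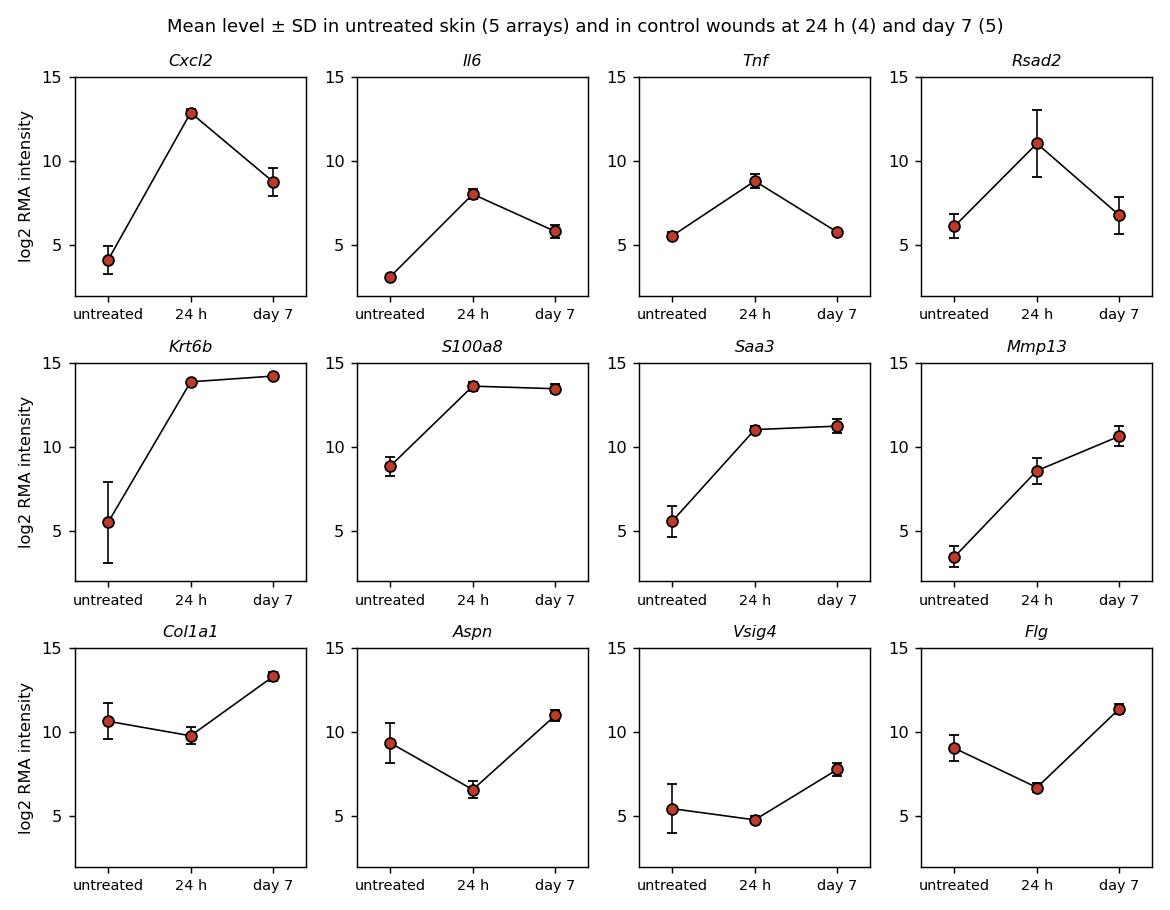
Level of 12 genes in untreated skin, in 24 h control wounds and in day 7 control wounds, in log2 RMA intensity, each point the group mean over 5, 4 and 5 arrays with its SD as an error bar, joined by lines. Cxcl2, Il6, Tnf and Rsad2 were highest at 24 h, Krt6b, S100a8 and Saa3 were high at both times, Mmp13 was highest at day 7, and Col1a1, Aspn, Vsig4 and Flg had their lowest means at 24 h.

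Levels in the other 24 h wounds are given beside the control wounds for 3 of the leading genes, without a test. Cxcl2 averaged 12.42 with IL-22-Fc, 12.38 with VEGF and 12.93 with PDGF, against 12.89 in control wounds. Rsad2 averaged 11.32 with IL-22-Fc, 9.43 with VEGF and 11.10 with PDGF, against 11.05 in control wounds, and Krt6b 13.89 with IL-22-Fc, 13.60 with VEGF and 13.91 with PDGF, against 13.86. The mean level of interferon-stimulated genes ran from 8.82 to 10.27 with IL-22-Fc, from 7.47 to 9.75 with VEGF and from 8.55 to 10.03 with PDGF, against 7.77 to 10.45 in control wounds.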

How the data were processed

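RNA of mouse skin was hybridised to Affymetrix Mouse430V2 arrays, 1 sample per array. The deposited values are linear RMA intensities, which the authors normalized by RMA and reduced to 1 probe set per Entrez gene, the one with the highest variance, so that the choice of probe sets used these arrays. The set of arrays normalized together, the RMA version and the genome build are not given in the sources used here. The median intensity was 50.8, and the number of arrays limits precision.

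The intensities were taken to log2. limma 3.58.1 (R 4.3.3, lmFit and eBayes) was fitted to all 20672 probe sets with a mean for each of 9 groups, and p-values were adjusted by Benjamini-Hochberg over all of them. The 24 h control wounds were contrasted with untreated skin and with day 7 control wounds. The threshold for a call was that of the study's methods, 1.5-fold with an adjusted p below 0.05. On simulated arrays with 50 changed probe sets per size among 20672, 34% of 1.5-fold, 92% of 2-fold and 100% of 4-fold rises in 24 h wounds were called, with 0 false calls. The 5' control probe sets were compared by an exact permutation test (scipy 1.17.1).

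Names came from the platform annotation. 17928 probe sets had 1 symbol, 79 several and 2665 none, and 17779 matched RefSeq. 60 gene lists held 1259 genes, of which 1131 were measured, and a gene could stand in several lists. The comparison, the members and the lists were chosen with earlier results of these data known. Genes named were the leading 15 in each direction, key genes of each list, up to 6 further called members with the largest change, up to 2 uncalled members with the highest level, and up to 5 that differed most from day 7. C1qb, Csf1r, Gpnmb, Ifng, Il10ra, Il10rb, Lce1f, Lce1l, Mrc1, Timd4 and Vsig4 fell outside this rule and were named after their values were seen. Levels of different probe sets were not set against each other. Promoter sequences came from RefSeq (GRCm38.p6), at the first start listed for each gene.

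Alternatives covered normalization, an offset, a filter on dim probe sets, array weights, the variance model, the thresholds, the arrays fitted, the 5' control level as a covariate, leaving out each array and the methods' t-test with its own Benjamini-Hochberg adjustment.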

Additional observations from a re-analysis of the deposited data

Results flagged for a closer look

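Of 492 sets of arrays examined in 244 named genes, each the 4 wounds or the 5 untreated arrays, 51 held 1 array whose gap to its nearest neighbour took up an unusually large part of the whole range. Chance alone gives about 1 in 20 such sets. 34 of the 51 were in untreated skin and 17 in 24 h wounds. All values are log2 RMA intensities.

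Untreated replicate 5 was the array set apart in 32 cases. It was high for hair and pigment genes, with Krt27 at 13.16, Krt71 at 12.66, Prr9 at 13.46, Dct at 11.77 and Lhx2 at 9.54, where the other untreated arrays reached at most 8.83. It was also high for Flg (10.38), Scd2 (11.80), Egr1 (11.96), Bhlhe40 (9.41), Acta2 (12.15), Cd74 (12.36), Arg2 (7.88), Has3 (6.39), Camp (5.65) and Nlrp3 (5.94). Arg2 and Has3 rose in wounds, and their other untreated arrays lay at 4.89 to 5.30 and 3.74 to 3.82. The array was low for genes of fat, muscle and resting fibroblasts, with Lep at 7.59, Tcap at 8.75, Aspn at 7.27 and Timp3 at 6.46. It was low for the pericyte marker Rgs5 at 6.24, and for Il22ra2 at 5.46. For Il22ra2 the other untreated arrays lay at 9.08 to 10.09. Ccl11 (7.69), Cxcl1 (4.14), Lrg1 (9.47), Il1f9 (6.65), Defb1 (8.53), Lama3 (7.77) and Egfr (5.24) were low there as well. The 5' control probe sets, which are the probe sets of Gapdh (11.14) and Actb (12.30), were lowest on this array and count among the 32 a second time as controls. Whether RNA quality or the follicle stage moved any of these genes was not tested.

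Of the other untreated arrays, replicate 2 was high for Slpi, at 9.42 against 6.56 to 6.83, and replicate 3 for Il10, at 5.34 against 3.70 to 4.17.

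Among the 24 h wounds, replicate 2 was set apart in 8 cases. It was high for Arg2 (9.49), Il1a (8.16), Il1f8 (6.93), Mmp8 (8.95), Cxcr2 (8.63) and Aspn (7.33), and low for Cd34 (8.72) and Il20ra (6.67). Il1a lay at 6.54 to 6.74 on the other 3 wounds, and Mmp8 at 7.79 to 7.95. Replicate 1 was high for Ccl20 (8.39) and low for Hmox1 (10.19). Replicate 3 was high for Cox7a1 (7.51), Csf3 (5.93) and Egf (4.46). Replicate 4 was high for Hpgd (8.52), Il1r2 (10.89) and Rela (9.87) and low for Trem1 (8.08).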

How the results depend on the processing

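Under another threshold or test the counts of the 24 h comparison moved from 1624 higher and 2130 lower to 848 and 702 (at least 2-fold), 3988 and 4184 (no fold threshold) and, by the methods' t-test, 1181 and 1147 after Benjamini-Hochberg adjustment. Leaving out 1 array at a time gave 1516 to 1849 higher and 1886 to 2524 lower. Against day 7, the 1251 higher and 1487 lower became 484 and 593 at 2-fold, 3314 and 2917 with no fold threshold, and 1135 to 1322 and 1362 to 1702 with 1 array left out. The 5' controls ran from -0.14 to 0.31 (Gapdh) and from 0.15 to 0.41 (Actb) with 1 array left out, and none passed. No paired analysis was possible because the labels carry no replicate numbers, and those used here follow the order of deposit.

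Of 4587 gene values under 19 alternatives, 4436 kept their direction and their side of the thresholds or had no call before and after, 89 lost a call, 62 gained one, and no called gene changed direction. Among genes without a call, C1qa, Camp, Cd3e, Cd74, Cma1, Gapdh, Ifi27l2a, Il1f6, Mki67 and Mpo took the other sign under at least 1 setting. Besides the losses named with the results, 1 array decided 10 calls. Tgfa lost its call without wound replicate 1 or 2 or untreated replicate 2 or 3 (lowest 0.52), Gzma without wound replicate 1 or 3 or untreated replicate 1 or 4 (0.49), Hmgcs1 without wound replicate 3 or untreated replicate 1, 2 or 4 (-0.49), Clock without wound replicate 3 (-0.46) or untreated replicate 4 (-0.54), Abca12 without wound replicate 1 (-0.56) or untreated replicate 1 (-0.58), Itga5 without wound replicate 3 (0.48), C1qb without wound replicate 3 (0.50) or untreated replicate 1 (0.57) or 2 (0.47), Csf1r without untreated replicate 2 (0.49) or 5 (0.57), and Defb1 (-0.56) and Fos (0.91) without untreated replicate 1. 1.5-fold changes are near the limit of these arrays, and the cause of these losses was not tested.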
